A study of Mus musculus with 6 samples.

Results

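The genes described here encode the proteins of the cytosolic ribosome. They were taken by symbol, as Rps, Rpl or Rplp followed by a number and, where present, a letter or copy suffix, with named pseudogenes (-ps) left out. This gave 89 of the 45679 gene symbols in the files. Of these, 30 encode proteins of the small subunit, 43 proteins of the large subunit and 3 the acidic stalk of the large subunit, which together make 76 core genes. The other 13 are paralogs or near-identical copies with a numbered or "l" symbol, and RefSeq lists 5 of them as pseudogenes. A total of 236 symbols with -ps were left out by the rule.

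The values come from mRNA sequencing of whole ovaries of wild-type BDF1 mice, a hybrid laboratory strain. The groups, of 2 libraries each, are mice of 65 weeks given MIT-001 (old MIT-001), mice of 65 weeks given PBS (old PBS) and mice of 8 weeks given PBS (young PBS). MIT-001 is an agent that scavenges reactive oxygen species in mitochondria, and the labels give 0.5 mg/kg into the abdomen over 7 days. PBS was also injected, and the same 7 days are given for it. The study used 40 old and 20 young animals, but no label ties a library to its animals. The p-values therefore measure only the spread between these libraries, which may be technical. Levels are in TPM, a transcript abundance that is scaled for length and sums to the same total in every library. Between 14317 and 16304 symbols per library reached a TPM of 1, and the deposited coverage implied 6.33 to 7.14 gigabases of aligned reads.

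Cell-type marker genes did not follow the age labels, and all groups are therefore named as labelled. The summed level of 16 oocyte genes was 161 and 94.6 TPM in the old MIT-001 libraries, 788 and 800 TPM in the old PBS libraries, and 503 and 106 TPM in the young PBS libraries. Granulosa and theca markers, which define the ovary, were present in all 6 libraries, with a summed granulosa level of 2684 TPM or more and a summed theca and luteal level of 20254 TPM or more. In whole tissue, fewer cells of a type and less RNA per cell cannot be told apart.

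Most ribosomal proteins are made in equal numbers for each ribosome, and the mRNAs of ribosomal proteins are among the most abundant in a growing cell. Most of these mRNAs begin with a 5′ terminal oligopyrimidine (TOP) tract, a cytosine followed by a run of pyrimidines, through which mTORC1 and the RNA-binding protein LARP1 control their translation as a group. Free RPL5 and RPL11 bind MDM2 and so link ribosome assembly to p53. In the ovary, oocytes store ribosomes during growth, and granulosa and luteal cells translate heavily.

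No link between start sequence and mRNA level was tested. As examples, the start regions of 4 core genes with a pyrimidine tract near the start are shown. Each runs from 30 bases before to 20 bases after the start annotated by RefSeq on GRCm38.p6, 5′ to 3′ on the strand of the gene, and capitals mark a cytosine near the start with the pyrimidines that follow it. Rps27 lies at chr3:90213629-90213678 (minus strand), Rps18 at chr17:33955646-33955695 (minus), Rpl35a at chr16:33056452-33056501 (plus) and Rps6 at chr4:86857348-86857397 (minus).
Rps27: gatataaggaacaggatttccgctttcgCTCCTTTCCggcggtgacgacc
Rps18: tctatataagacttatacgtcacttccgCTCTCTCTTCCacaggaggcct
Rpl35a: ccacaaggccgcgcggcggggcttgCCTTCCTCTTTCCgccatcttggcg
Rps6: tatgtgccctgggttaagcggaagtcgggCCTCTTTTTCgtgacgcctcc

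RefSeq promoters of 300 bases, which reach from 250 bases before to 50 bases after the start, were matched for 64 of the 89 genes. A cytosine followed by at least 4 pyrimidines began within 5 bases of the annotated start in 30 of the 64 (46.9%), against 21.2% of all 27025 symbols with a promoter. The letters CCGGAAG, on either strand, occurred in 25 of the 64 (39.1%), against 9.9% of all symbols. These are the core of sites bound by ETS factors. AAGATGGC, the core of a YY1 site, occurred on either strand in 6 of the 64 (9.4%), against 3.2% of all symbols, and it can overlap CCGGAAG by its first 3 letters. TATAAA occurred in 8 of the 64 (12.5%), against 15.7% of all symbols. Such matches describe the letters in these windows and not the binding of a factor.

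The ribosomal protein genes together held a similar share of the transcriptome in all 4 libraries labelled 65 weeks, while the young PBS libraries stood apart in opposite directions. Their summed level was 10.5% and 10.2% of all TPM in the old MIT-001 libraries, 10.4% and 10.3% in the old PBS libraries, and 20.2% and 7.22% in the young PBS libraries. The group means were 10.4% ± 0.188 for old MIT-001, 10.4% ± 0.071 for old PBS and 13.7% ± 9.16 for young PBS (SD, n = 2 each). The exact two-sided permutation test gave p = 1.0 in each of the 3 comparisons, and 2 libraries against 2 cannot give a p below 0.333. With the 531 pseudogenes and near-identical copies added to their parent genes, the shares were 12.0% and 11.6% in old MIT-001, 11.6% and 11.5% in old PBS, and 22.6% and 8.18% in young PBS.

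**Figure D1:**
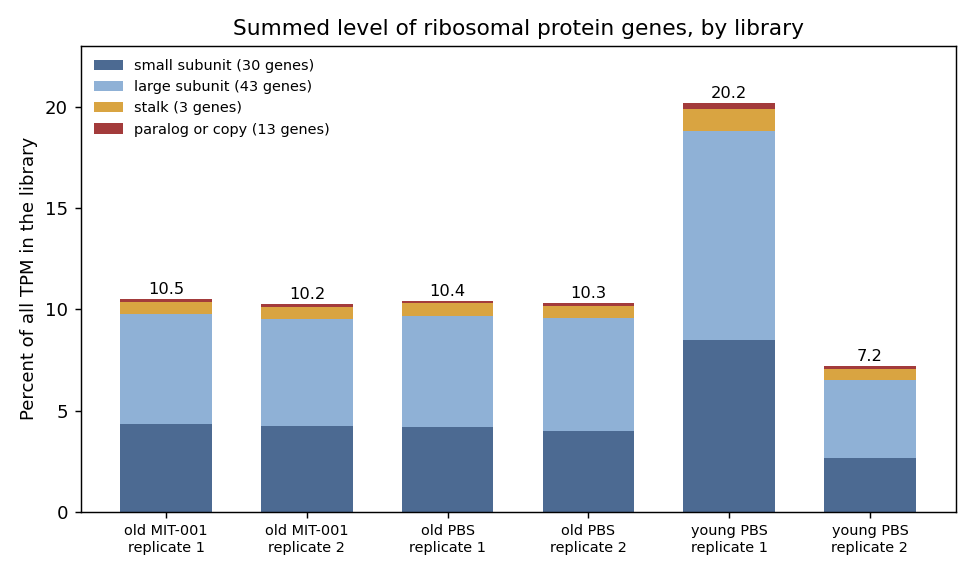
Summed level of the 89 ribosomal protein genes as a percent of all TPM (y axis) in each of the 6 libraries (x axis), stacked by small subunit, large subunit, stalk, and paralogs or copies. The 4 libraries of 65 weeks lie between 10.2% and 10.5%, and the young PBS libraries lie at 20.2% and 7.22%.

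Both subunits took part. Small subunit genes held 4.31% and 4.21% of TPM in old MIT-001, 4.16% and 4.0% in old PBS, and 8.47% and 2.68% in young PBS. Large subunit genes held 5.47% and 5.31% in old MIT-001, 5.51% and 5.56% in old PBS, and 10.3% and 3.84% in young PBS. The ratio of the mean small subunit to the mean large subunit level was 1.13 and 1.14 in old MIT-001, 1.08 and 1.03 in old PBS, and 1.17 and 1.00 in young PBS. Of the 100 symbols with the highest TPM in a library, ribosomal protein genes made up 41 in each old MIT-001 library, 37 and 42 in the old PBS libraries, and 64 and 21 in the young PBS libraries.

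The distance between the young PBS libraries ran through the whole family. All 76 core genes had a higher TPM in young PBS replicate 1 than in replicate 2, with a median difference of 1.46 on the log2(TPM + 1) scale, a 2.75-fold difference. Over all 16473 genes tested the median difference between the same libraries was 0.10, and 55.4% were higher in replicate 1. The median difference of the core genes between replicates 1 and 2 was 0.07 in old MIT-001 and 0.03 in old PBS. Of the 76 core genes, 74 had a higher level in young PBS replicate 1 than in any of the 4 libraries of 65 weeks, and 69 had a lower level in young PBS replicate 2 than in any of them. Both held for 67 core genes (88.2%), and for 5.52% of all genes tested. The median core gene in young PBS replicate 1 stood at 1.94 times its median over the libraries of 65 weeks (young over old), and in replicate 2 at 0.64 times.

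**Figure D2:**
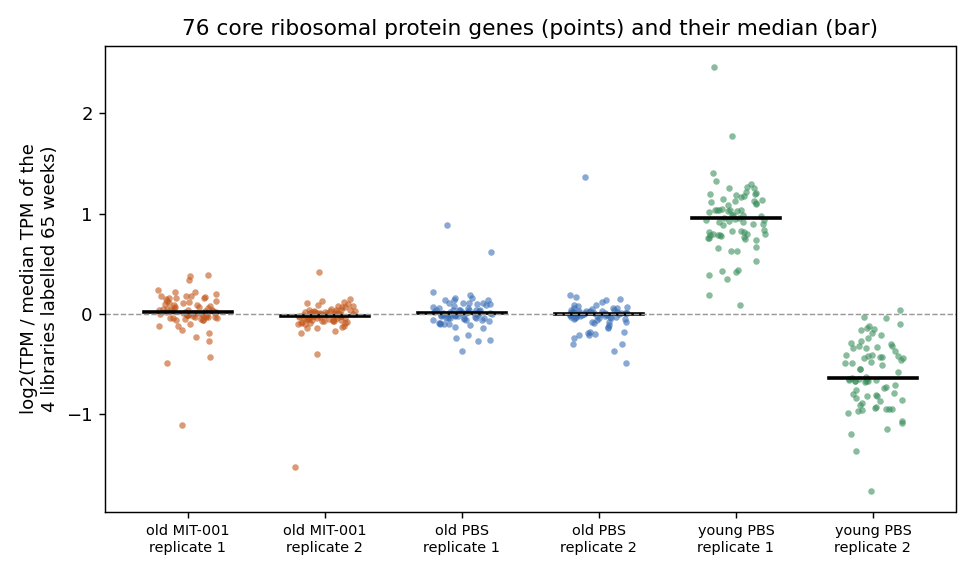
Level of each of the 76 core ribosomal protein genes (points) in each library as log2 of its TPM over its median TPM in the 4 libraries of 65 weeks (y axis); black bars are medians over genes. The points of the old MIT-001 and old PBS libraries centre on 0, those of young PBS replicate 1 lie above it, and most of those of replicate 2 lie below it.

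Mitochondrial ribosomal protein genes, and other genes chosen by transcript length or abundance, had smaller median differences between the young PBS libraries. Some short lists had larger ones: 2.70 for the 16 oocyte genes, 3.79 for the 4 adipocyte genes tested and 2.06 for the 6 hosts of small nucleolar RNAs. Granulosa and macrophage markers had median differences of 0.01 and 0.04. The 78 mitochondrial ribosomal protein genes, whose products form the ribosome of the mitochondrion, had a median difference of 0.21 between young PBS replicates 1 and 2. Other protein-coding genes with a transcript under 700 bases had a median difference of 0.51 (403 genes), and abundant protein-coding genes outside the family (mean of 500 TPM or more) had a median difference of -0.25 (174 genes). Within the family, the shortest 25 core transcripts, of 271 to 589 bases, had a median ratio of 3.26 between young PBS replicates 1 and 2 with copies summed. The middle 25, of 597 to 851 bases, had a median ratio of 2.67, and the longest 26, of 860 bases or more, had one of 2.71. Across the 76 core genes the log2 difference had a Pearson r of -0.195 with transcript length and -0.377 with GC content. These points share the same libraries and so describe them only, and the part of length and base composition in the difference was not tested.

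**Figure D3:**
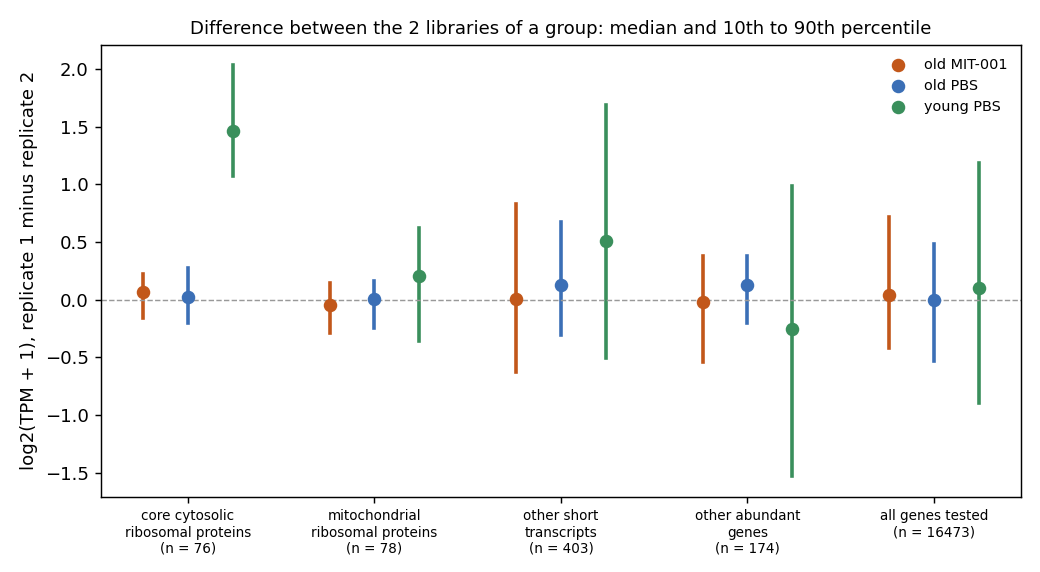
Difference between replicate 1 and replicate 2 of each group on the log2(TPM + 1) scale (y axis) for 5 gene groups (x axis); points are medians over genes and lines run from the 10th to the 90th percentile. The median of core ribosomal protein genes in young PBS, 1.46, lies above the medians of the other gene groups shown. It also lies above those of the same genes in old MIT-001 and old PBS. In young PBS the lines of other short transcripts (-0.506 to 1.685) and of all genes tested (-0.897 to 1.184) overlap that of the core genes (1.069 to 2.032).

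Some lists of cell-type markers also differed between the young PBS libraries, while others differed less. Granulosa markers summed to 3407 TPM in replicate 1 and 3135 TPM in replicate 2, with 6 of 11 higher in replicate 1. Macrophage markers summed to 1015 and 917 TPM, with 5 of 10 higher in replicate 1. The summed adipocyte level was 276 TPM in replicate 1 and 31.8 TPM in replicate 2, and the defining fat gene Adipoq was at 21.5 and 1.05 TPM. The 11 lymphocyte markers summed to 64.0 and 24.1 TPM. Of the markers that passed the filter on low values, 3 of 4 for adipocytes, 9 of 10 for lymphocytes and 16 of 16 for oocytes were higher in replicate 1. Theca and luteal markers summed to 20254 TPM in replicate 1 and 53089 TPM in replicate 2, and 1 of 8 was higher in replicate 1. Akr1c18, which breaks down progesterone in regressing corpora lutea, was at 425 TPM in replicate 1 and 13608 TPM in replicate 2. It was at 7777 and 13329 TPM in old MIT-001 and at 3597 and 1164 TPM in old PBS. The TPM of a gene divided by its FPKM, a single constant per library, was 1.89 in young PBS replicate 1 and 2.26 to 2.31 in the other 5 libraries. The part of these differences in the ribosomal protein level was not tested.

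In the comparison of old MIT-001 with old PBS, which asks what the treatment does in old ovaries, the family as a whole lay at the same level in both groups. No ribosomal protein gene passed limma's test at an adjusted p below 0.05, of the 86 that reached 1 TPM in 2 or more libraries, and 3 of all 16473 genes passed (0.0182%). At an unadjusted p below 0.05 there were 2 of the 86, against 11.8% of all genes. The median log2 fold change over the 86 genes was -0.003, against 0.03 over all genes tested, and it lay between -0.10 and 0.01 under the other scalings. Of the 76 core genes, 38 had a positive and 38 a negative fold change, and 74 lay within 0.5 on the log2 scale, with Rpl26 and Rps2 outside it. With near-identical copies summed, Rpl26 was at 0.17, Rps2 at -0.12 and Rpl21 at 0.55, against -0.40 for Rpl21 alone. The median standard error of a core gene was 0.50 in the fit to all 6 libraries and 0.15 in a fit to the 4 libraries compared. The old MIT-001 libraries lay above both old PBS libraries in 16 of the 86 genes (18.6%), against 27.2% of all genes, and below both in 18 (20.9%), against 24.2%. Cell-type markers differed between these groups: all 16 oocyte genes and 10 of 11 granulosa genes had a negative fold change, and all 8 genes of the surface epithelium had a positive one, with 1 of these 8 called. Their part in the ribosomal protein levels was not tested.

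In the comparison of old PBS with young PBS, which addresses age in mice given PBS, the spread between the young PBS libraries was larger than the difference between groups. None of the 86 genes passed limma's test at an adjusted p below 0.05, or at an unadjusted p below 0.05. Over all genes, 0.0364% passed at the adjusted and 18.1% at the unadjusted level. The median log2 fold change of the 86 genes was -0.19, against 0.23 over all genes, so the family lay 0.42 below the median of all genes. Under other scalings the family median ran from -0.51 with median centring to 0.03 with quantile normalization. Cell-type markers differed in the same comparison: all 16 oocyte genes and all 11 granulosa genes had a positive fold change, with 1 granulosa gene called, while all 10 macrophage genes and 6 of 7 plasma cell genes had a negative one, with 2 and 1 called. Their part in the ribosomal protein levels was not tested. The libraries did not overlap for 1 gene higher in old PBS, the assembly factor Rpl7l1 (1.16%, against 38.1% of all genes), and for 1 gene lower, Rpl10a (1.16%, against 11.0%). The direction depended on which young PBS library was kept. Without young PBS replicate 1 the median was 0.57, and without replicate 2 it was -0.96. In these fits the lone young PBS library is assumed to vary like the other groups. For Rpl26 and Rps3a1 the fold change over all 6 libraries was 0.64 and 0.29 for the gene alone, and -0.35 and -0.20 with copies summed.

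The comparison of old MIT-001 with young PBS uses the same young libraries and had the same limit. No ribosomal protein gene was called, and neither was any other gene (0.0%), while 2 of the 86 had an unadjusted limma p below 0.05, against 17.9% of all genes. The median log2 fold change was -0.19, against 0.24 over all genes, a difference of -0.43. Under other scalings the median ran from -0.60 with median centring to 0.03 with quantile normalization. In TPM the median was 0.55 without young PBS replicate 1 and -0.94 without replicate 2. The libraries did not overlap for 0 genes higher in old MIT-001, against 37.3% of all genes, and for 3 genes lower (3.49%), against 6.56%. These 3 were the pseudogenes Rps3a2, Rps3a3 and Rps4l.

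The 4 genes with the highest mean level were Rpl41, Rps9, Rplp1 and Rpl23a. Rpl41, which encodes the smallest ribosomal protein, was at 2972 and 2783 TPM in old MIT-001, 3194 and 2961 TPM in old PBS, and 6072 and 2191 TPM in young PBS. The small subunit gene Rps9 was at 2873 and 3739 TPM in old MIT-001, 2626 and 2710 TPM in old PBS, and 5970 and 1748 TPM in young PBS. Both genes were highest in young PBS replicate 1 and lowest in replicate 2. Rplp1, a stalk protein that helps to recruit elongation factors, was at 2501 and 2613 TPM in old MIT-001, 2808 and 2212 TPM in old PBS, and 5256 and 2283 TPM in young PBS. Rpl23a, which lies at the tunnel exit, was at 2658 and 2446 TPM in old MIT-001, 2888 and 2591 TPM in old PBS, and 4633 and 2171 TPM in young PBS. The largest difference of these 4 between old MIT-001 and old PBS was that of Rps9, with a log2 fold change of 0.30 and an limma adjusted p of 0.947.

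The size of the young PBS difference varied between proteins. With copies summed, the ratio of replicate 1 to replicate 2 ran from 1.48 for Rplp0 to 5.64 for Rps27, with a median of 2.82. Rps27, a zinc-finger protein of the small subunit, was at 2058 and 1549 TPM in old MIT-001, 1600 and 1277 TPM in old PBS, and 5374 and 954 TPM in young PBS. Rps23, which lies at the decoding centre, was next with a ratio of 5.03. Rplp0, the scaffold of the stalk, was at 2071 and 2017 TPM in old MIT-001, 2176 and 2198 TPM in old PBS, and 2883 and 2062 TPM in young PBS. In young PBS replicate 2 it therefore lay within the range of the libraries of 65 weeks, unlike most of the family. Rpl10 and Rpl8, with ratios of 1.57 and 1.67, were nearest to it. As a share of all core ribosomal protein TPM with copies, a gene's highest and lowest library differed by a median of 1.34-fold over the 6 libraries and 1.16-fold over the 4 libraries of 65 weeks.

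RPS6, the substrate of the S6 kinases, and the p53-linked RPL5 and RPL11 followed the family. Rps6 was at 1048 and 1009 TPM in old MIT-001, 951 and 1024 TPM in old PBS, and 1768 and 654 TPM in young PBS. Rpl5 was at 1382 and 1255 TPM in old MIT-001, 1097 and 1288 TPM in old PBS, and 2171 and 573 TPM in young PBS. Rpl11 was at 986 and 916 TPM in old MIT-001, 1017 and 962 TPM in old PBS, and 1870 and 506 TPM in young PBS. All 3 genes were highest in young PBS replicate 1 and lowest in replicate 2. In the fit to all 6 libraries none passed limma's test in any comparison, with adjusted p-values of 0.896 or more. Rpl10a, with the smallest p among core genes lower in old PBS than in young PBS, was at 1201 and 1358 TPM in old PBS and at 2721 and 1360 TPM in young PBS (log2 fold change -0.59 ± 0.40 (SE), limma adjusted p = 0.476).

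Several members share nearly their whole coding sequence with processed pseudogenes, and reads can be divided between them. Copies were defined by an identity of at least 95% over at least 80% of the coding sequence, or by a -ps name. In 5 core genes the gene itself held under 50% of the TPM of the gene and its copies: Rpl29 held 5.1%, Rpl34 14.3%, Rps18 25.3%, Rpl21 26.0% and Rps2 26.2%. Rpl26 and Gm15772 are a pair whose division differed between libraries. The deposited files place Rpl26 at chr11:68901566-68904534 and Gm15772 at chr5:3236390-3236928, both on the plus strand of mm10. In GENCODE vM21 the coding sequences match at all but 2 of 435 bases, C177T and T288C, counted from 1 at the first base of the start codon with the base of Rpl26 first. The windows show both positions in capitals, and the Rpl26 windows are each interrupted by an intron in the genome. They lie at chr11:68902421-68903217 and chr5:3236577-3236637 for C177T, and at chr11:68903268-68904373 and chr5:3236688-3236748 for T288C, on GRCm38.
Rpl26, C177T: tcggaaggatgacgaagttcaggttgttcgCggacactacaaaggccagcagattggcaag
Gm15772, C177T: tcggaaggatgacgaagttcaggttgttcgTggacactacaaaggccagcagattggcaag
Rpl26, T288C: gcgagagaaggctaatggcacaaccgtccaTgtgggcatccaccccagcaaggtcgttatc
Gm15772, T288C: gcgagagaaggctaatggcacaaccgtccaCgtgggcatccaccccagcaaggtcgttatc

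Rpl26, a protein near the tunnel exit, which in human cells also binds p53 mRNA, was at 280 and 209 TPM in old MIT-001, 923 and 1548 TPM in old PBS, and 3309 and 178 TPM in young PBS. Gm15772 was at 1783 and 1562 TPM in old MIT-001, 881 and 47.3 TPM in old PBS, and 176 and 1171 TPM in young PBS. It was high where Rpl26 was low, and the share of Rpl26 in the pair ran from 11.8% to 97.0% among the libraries. With all copies summed the level was 2072 and 1778 TPM in old MIT-001, 1809 and 1603 TPM in old PBS, and 3492 and 1353 TPM in young PBS. In the comparison of old MIT-001 with old PBS, Rpl26 alone had a log2 fold change of -2.30 ± 1.25 (SE, limma adjusted p = 0.571). It was the 1 gene of the 86 called in a fit to the 4 libraries compared (limma adjusted p = 0.0424), where 0.941% of all genes were called lower. With copies summed its fold change was 0.17 ± 0.49 (limma adjusted p = 0.961).

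Rps3a1 and its numbered copies were also divided differently between libraries. Rps3a1, a small subunit protein, lies at chr3:86137940-86142668 (minus), Rps3a2 at chr14:88122952-88123833 (minus) and Rps3a3 at chr13:108670580-108671443 (plus) in the deposited files. Over the 792 coding bases Rps3a2 differs from Rps3a1 at 4 and Rps3a3 at 9. One of the shared differences, T216C, is shown in capitals with 30 bases on each side, at chr3:86141347-86141407, chr14:88123563-88123623 and chr13:108670788-108670848 on GRCm38.
Rps3a1: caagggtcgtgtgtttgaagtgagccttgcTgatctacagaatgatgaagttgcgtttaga
Rps3a2: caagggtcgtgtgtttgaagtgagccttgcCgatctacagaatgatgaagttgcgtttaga
Rps3a3: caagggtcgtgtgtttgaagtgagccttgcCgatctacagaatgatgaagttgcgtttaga

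Rps3a1 was at 2121 and 1930 TPM in old MIT-001, 1756 and 1430 TPM in old PBS, and 2354 and 716 TPM in young PBS. Rps3a2 was at 62.9 and 53.9 TPM in old MIT-001, 47.5 and 375 TPM in old PBS, and 585 and 357 TPM in young PBS. Rps3a3 was at 3.62 and 5.81 TPM in old MIT-001, 2.12 and 350 TPM in old PBS, and 717 and 251 TPM in young PBS. Both copies were low in the old MIT-001 libraries and old PBS replicate 1, and high in the other 3 libraries. They had the smallest p of all members in the comparison of old MIT-001 with young PBS. The log2 fold change was -2.95 ± 0.89 for Rps3a2 and -6.24 ± 2.01 for Rps3a3 (SE), with limma adjusted p-values of 0.177 and 0.192. The sum of Rps3a1 and these and other copies was 2208 and 2007 TPM in old MIT-001, 1825 and 2248 TPM in old PBS, and 3840 and 1417 TPM in young PBS, with a fold change of -0.15 ± 0.52 between old MIT-001 and young PBS (limma adjusted p = 0.924).

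**Figure D4:**
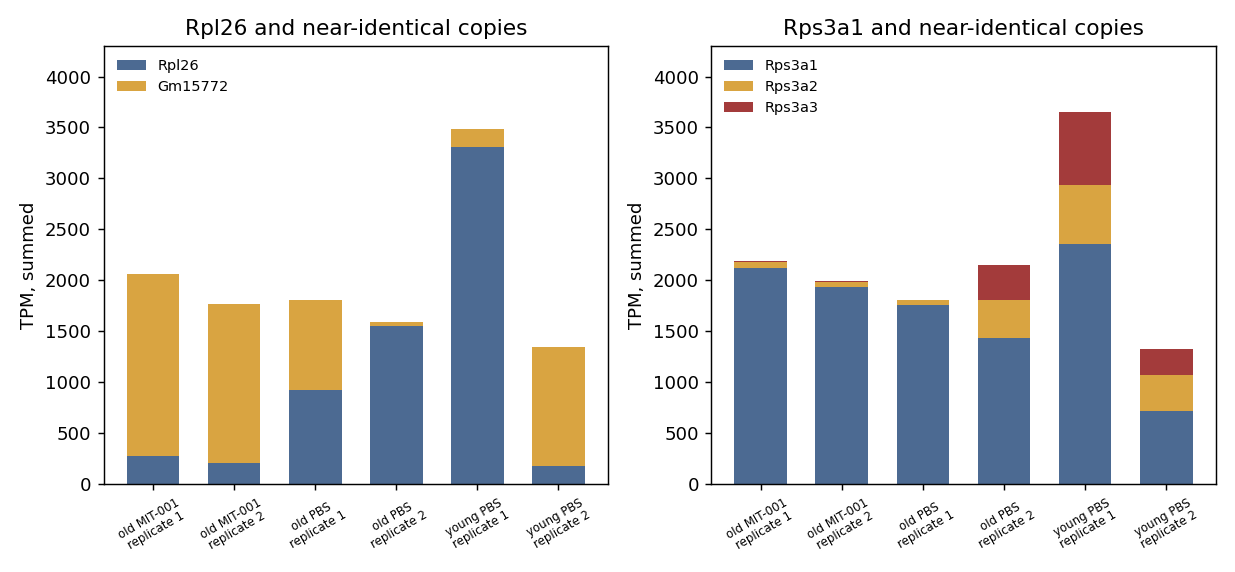
TPM of Rpl26 with its copy Gm15772 (left) and of Rps3a1 with Rps3a2 and Rps3a3 (right), stacked, in each of the 6 libraries (x axis). The share of each copy changes between libraries, from 11.8% to 97.0% for Rpl26, while Rpl26 and Gm15772 together differ less between libraries than Rpl26 alone.

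Other genes named by their small p were affected by copies in part. Rps2, which lies near the mRNA entry site, was at 397 and 527 TPM in old MIT-001, 989 and 543 TPM in old PBS, and 699 and 336 TPM in young PBS. With its 23 copies it was at 1823 and 2337 TPM in old MIT-001, 2197 and 2294 TPM in old PBS, and 3122 and 1578 TPM in young PBS. Between old PBS and young PBS the log2 fold change was 0.60 ± 0.46 for Rps2 alone (limma adjusted p = 0.531) and 0.02 with copies. Rpl34 was at 340 and 247 TPM in old MIT-001 and at 220 and 277 TPM in old PBS, with a log2 fold change of 0.23 ± 0.47 and an limma adjusted p of 0.945. Its copy Rpl34-ps1 was at 1137 and 1046 TPM in old MIT-001 and at 969 and 827 TPM in old PBS. Rpl15 and Rpl30, with the smallest p after Rps3a1 among genes higher in old MIT-001 than in young PBS, had log2 fold changes of 0.36 ± 0.35 and 0.38 ± 0.41 and limma adjusted p-values of 0.675 and 0.715. Rpl30 was at -0.15 with copies summed.

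The paralogs of core genes did not all follow the family. Rpl22l1, whose product can take the place of RPL22 in the ribosome, was the most abundant relative to its partner. It was at 381 and 289 TPM in old MIT-001, 195 and 235 TPM in old PBS, and 508 and 105 TPM in young PBS. Its partner Rpl22 was at 256 and 225 TPM in old MIT-001, 231 and 201 TPM in old PBS, and 402 and 125 TPM in young PBS. The Rpl22l1 share of the pair was 59.8% and 56.3% in old MIT-001, 45.8% and 53.9% in old PBS, and 55.8% and 45.5% in young PBS. Both old MIT-001 libraries lay above both old PBS libraries in level and in share, and Rpl22l1 had the smallest p among members higher in old MIT-001, with a log2 fold change of 0.63 ± 0.69 (SE) and an limma adjusted p of 0.858.

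Rpl36al, which encodes a near copy of RPL36A, varied less than its partner between the young PBS libraries. It was at 444 and 379 TPM in old MIT-001, 382 and 440 TPM in old PBS, and 555 and 436 TPM in young PBS, so its share of the pair was 25.7% and 56.1% in the young PBS libraries. Rps27l, a p53 target related to RPS27, was at 255 and 294 TPM in old MIT-001, 276 and 227 TPM in old PBS, and 336 and 192 TPM in young PBS. Its share was 11.0% and 15.97% in old MIT-001, 14.7% and 15.1% in old PBS, and 5.88% and 16.7% in young PBS. Rpl7l1, an assembly factor related to RPL7, was at 67.5 and 70.4 TPM in old MIT-001, 75.9 and 79.8 TPM in old PBS, and 69.2 and 64.4 TPM in young PBS. It was the paralog with the smallest range, and its log2 fold change between old PBS and young PBS was 0.22 ± 0.18 (limma adjusted p = 0.561).

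**Figure D5:**
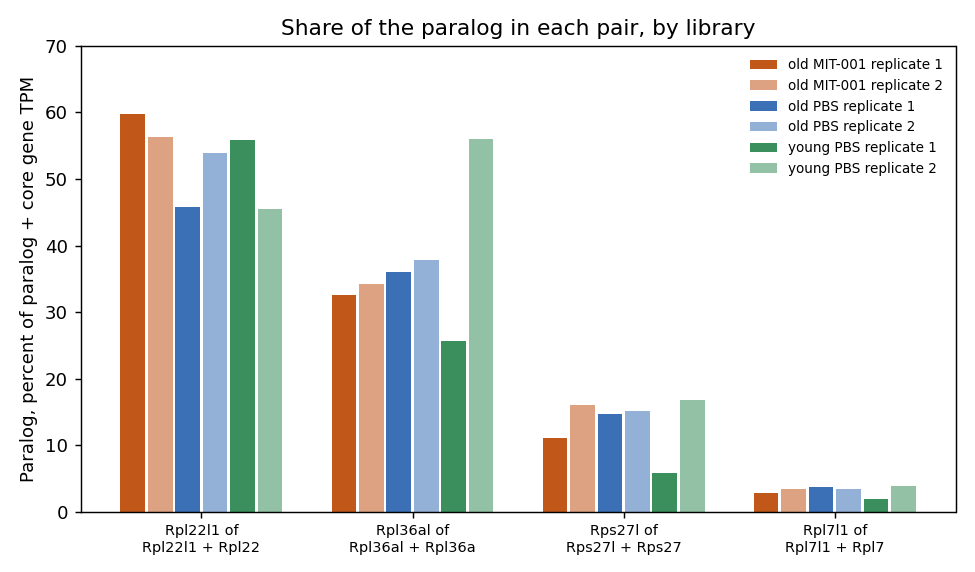
Share of the paralog in the summed TPM of the paralog and its core gene (y axis, percent) for Rpl22l1, Rpl36al, Rps27l and Rpl7l1, with 1 bar per library. Rpl22l1 makes up 45.5% to 59.8% of its pair, and the share of Rpl36al is lowest in young PBS replicate 1 (25.7%) and highest in replicate 2 (56.1%).

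Paralogs known from germ cells or muscle were at or near the limit of detection. Rpl39l, a paralog used in male germ cells, was at 0.0 and 0.13 TPM in old MIT-001, 2.39 and 1.46 TPM in old PBS, and 1.74 and 0.11 TPM in young PBS. The old MIT-001 libraries lay below both old PBS libraries, with a log2 fold change of -1.44 ± 0.49 (SE, limma unadjusted p = 0.0254, limma adjusted p = 0.336). The 16 oocyte genes were also all lower in old MIT-001 than in old PBS, as given above, and their part in the Rpl39l level was not tested. Between old PBS and young PBS Rpl39l overlapped, and it had the smallest p among members with a positive fold change (0.73 ± 0.49, limma adjusted p = 0.474). Its partner Rpl39 was at 1093 and 940 TPM in old MIT-001 and at 934 and 823 TPM in old PBS. Rps4l, a pseudogene related to Rps4x, was at 5.09 and 2.31 TPM in old MIT-001, 15.9 and 6.54 TPM in old PBS, and 8.66 and 7.83 TPM in young PBS. Its log2 fold change was -1.33 ± 0.49 between old MIT-001 and old PBS (limma unadjusted p = 0.0344, limma adjusted p = 0.366) and -1.04 ± 0.49 between old MIT-001 and young PBS (limma adjusted p = 0.335).

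Rpl39l and Rps4l, with mean levels of 0.97 and 7.72 TPM, were the members nearest above the filter on low values. The members that did not reach it were Rpl32l, Rpl10l and Rpl3l, with mean levels of 0.44, 0.21 and 0.06 TPM. Rpl10l, which replaces the X-linked Rpl10 in male meiosis, was at 0.0 and 0.07 TPM in old MIT-001, 0.27 and 0.48 TPM in old PBS, and 0.43 and 0.0 TPM in young PBS. Rpl3l, the muscle paralog of Rpl3, was at 0.20 TPM or lower in all 6 libraries. The pseudogenes Rpl6l and Rps12l1 followed the family, at 55.3 and 28.5 TPM in young PBS replicate 1 and at 19.6 and 6.18 TPM in replicate 2.

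Genes that work with the ribosomal proteins were described from lists chosen by function. The 6 hosts of small nucleolar RNAs, among them Gas5, which also carries a TOP start, were all higher in young PBS replicate 1 than in replicate 2, with a median difference of 2.06 (log2), and 0 of 6 were called in any comparison. They summed to 461 and 328 TPM in old MIT-001, 380 and 380 TPM in old PBS, and 811 and 188 TPM in young PBS. Gas5 itself was at 196 and 122 TPM in old MIT-001, 147 and 175 TPM in old PBS, and 431 and 97.3 TPM in young PBS.

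Among 17 translation factors and other mRNAs with a TOP start, 15 were higher in young PBS replicate 1 than in replicate 2, with a median difference of 0.79. Tpt1, a classical TOP mRNA, was at 5737 and 5306 TPM in old MIT-001, 4907 and 5044 TPM in old PBS, and 8191 and 3101 TPM in young PBS. The elongation factor Eef2 and the initiation factor subunit Eif3l were the 2 lower in young PBS replicate 1, with Eef2 at 2497 and 3013 TPM in replicates 1 and 2. Of the 17 genes 0 were called in any comparison. Pabpc1, the poly(A)-binding protein, had the smallest p, with a log2 fold change of 0.99 ± 0.33 between old PBS and young PBS (limma adjusted p = 0.235).

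Factors that build ribosomes in the nucleolus did not show this pattern. The 34 assembly factors summed to 1555 and 1633 TPM in old MIT-001, 1552 and 1767 TPM in old PBS, and 1517 and 1379 TPM in young PBS. Their median difference between the young PBS replicates was 0.17, with 18 of 34 higher in replicate 1. In old PBS against young PBS 29 of the 34 had a positive and 5 a negative fold change, with a median of 0.28, close to the 0.23 of all genes, and 0 were called. Rrs1, a factor for assembly of the large subunit, had the smallest p among them, with a log2 fold change of 0.94 ± 0.29 (limma adjusted p = 0.225). The 10 RNA polymerase I genes had a median difference of 0.01 between the young PBS replicates, and the 6 dedicated chaperones of ribosomal proteins one of 0.26. Neither list held a called gene in any comparison. The smallest p in them was that of Taf1b, with a log2 fold change of 0.72 ± 0.28 between old MIT-001 and young PBS (limma adjusted p = 0.25), and that of Heatr3, with one of 0.57 ± 0.22 between old PBS and young PBS (limma adjusted p = 0.264).

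Of 13 genes of mTORC1 and its control of TOP mRNAs, 5 were higher in young PBS replicate 1, with a median difference of -0.27, and 0 were called in any comparison. Rps6kb1, which encodes the S6 kinase that phosphorylates RPS6, had the smallest p. It was at 30.3 and 25.6 TPM in old MIT-001, 11.9 and 20.7 TPM in old PBS, and 8.22 and 4.86 TPM in young PBS. The groups did not overlap, and the log2 fold change between old MIT-001 and young PBS was 1.97 ± 0.37 (SE), with an limma adjusted p of 0.161. Larp1 had a log2 fold change of 0.54 ± 0.20 between old PBS and young PBS (limma adjusted p = 0.252). Among 6 genes of MDM2 and p53 targets, 0 were called. Ccng1, a cyclin gene induced by p53, had the smallest p, at 78.0 and 80.3 TPM in old MIT-001 and 39.4 and 37.7 TPM in young PBS, with a log2 fold change of 1.02 ± 0.24 (limma adjusted p = 0.161). Cdkn1a, the cell-cycle inhibitor induced by p53, was at 62.8 and 155 TPM in old MIT-001, 26.0 and 21.3 TPM in old PBS, and 30.1 and 107 TPM in young PBS, with a log2 fold change of 2.02 ± 0.66 between old MIT-001 and old PBS (limma adjusted p = 0.315).

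The 78 mitochondrial ribosomal protein genes summed to 5233 and 5455 TPM in old MIT-001, 6216 and 6084 TPM in old PBS, and 6161 and 5640 TPM in young PBS. Of the 78 genes, 70 had a negative and 8 a positive fold change between old MIT-001 and old PBS, with a median of -0.20, against 0.03 over all genes, and 0 were called. Mrps7, a small subunit protein of the mitochondrial ribosome, had the smallest p, at 77.5 and 82.7 TPM in old MIT-001 and 142 and 122 TPM in old PBS (log2 fold change -0.71 ± 0.20, limma adjusted p = 0.259). The difference between the cytosolic and mitochondrial lists was not tested.

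At an unadjusted limma p below 0.05, the lists of companion genes held between 0 and 5 members in a comparison, and the shares of all genes were those given above. Between old MIT-001 and old PBS these were 3 of 78 mitochondrial ribosomal protein genes, 1 of 6 genes of MDM2 and p53, and 0 in the other 6 lists. Between old PBS and young PBS they were 2 mitochondrial ribosomal protein genes, 2 of 34 assembly factors, 3 of 13 genes of mTORC1, 1 chaperone and 1 TOP mRNA. Between old MIT-001 and young PBS they were 1 mitochondrial ribosomal protein gene, 5 assembly factors, 2 genes of mTORC1, 2 genes of MDM2 and p53, and 1 RNA polymerase I gene.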

How the data were processed

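Ribosomal protein genes were described from 6 libraries of mouse ovary, 2 per group. Per the labels' protocols, TRIzol was used to extract RNA and a SMARTer mRNA kit to build libraries. Per the submitters' processing notes, Trimmomatic, HISAT2 and StringTie were used on mm10; the annotation, tool versions and strand setting are not stated there, so antisense partners cannot be separated. TPM, as deposited by the authors, is scaled for length and sums to a constant in each library. FPKM, also deposited by the authors, differs from it by a constant in each library. Coverage, a signal of mean read depth that the authors deposited, served only to estimate gigabases. The files hold no read counts, so the depth behind a single value is unknown and only the spread between libraries measures its error.

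Gene IDs were matched to symbols in a RefSeq table of GRCm38.p6 (98 rows per library did not match). Genes that reached 1 TPM in 2 or more libraries were fitted as log2(TPM + 1), 1 mean per group over all 6 libraries, with limma 3.58.1 (R 4.3.3, intensity trend), two-sided, with Benjamini-Hochberg adjustment over all 16473 genes and a threshold of 0.05. Fold changes on this scale understate those of low genes. The procedure was tested on simulated data. Copies were found with blastn 2.17.0. Members named were the 4 most abundant, the 3 with the smallest p in each direction per comparison, and all paralogs with their partners. Also named were numbered copies, those nearest the filter, and members with small p of other lists (Pabpc1, Rrs1, Rps6kb1, Taf1b, Heatr3, Ccng1, Cdkn1a, Mrps7, Larp1). Rps6, Rpl5, Rpl11, Rps27, Rps23, Rplp0, Rpl8, Rpl10 and Rpl10a were added after their values were seen. So were genes with divided copies, Gas5, Tpt1, Eef2, Eif3l, Adipoq and Akr1c18. The members and lists were chosen with earlier results of these data known.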

Additional observations from a re-analysis of the deposited data

How the results depend on the processing

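No ribosomal protein gene was called in any of the 3 comparisons with FPKM in place of TPM, with all genes kept or with those under 5 TPM removed, with 0.1 as pseudocount, with quantile normalization or median centring, with rescaling without ribosomal protein genes or without immunoglobulin, haemoglobin and mitochondrial genes, or with copies summed. With only the 2 groups in the fit, 1 was called in old MIT-001 against old PBS (Rpl26). Centring on the ribosomal protein genes was chosen after seeing the data and sets their median equal in all libraries. Their fold changes in this fit are therefore relative to the family itself, and the spread was estimated from level alone. It called 0 of the 86 members in old MIT-001 against old PBS, where 107 of all 16473 genes were called higher and 39 lower. In old PBS against young PBS it called 1 member lower, against 14 genes higher and 33 lower. In old MIT-001 against young PBS it called 1 member lower (Rps3a3), against 4 genes higher and 2 lower. With the replicate block 0 were called and the medians stayed at -0.003, -0.19 and -0.19. The labels do not say whether the replicate numbers pair libraries. Differences between replicates correlated at 0.175, 0.239 and 0.007 between groups, which cannot decide it, since each group gives only 1 such difference. Leaving out 1 library gave 0 to 1, 0 to 7 and 0 to 0 called members for old MIT-001 against old PBS, old PBS against young PBS and old MIT-001 against young PBS. In the same order, medians ran from -0.04 to 0.03, -0.96 to 0.57 and -0.94 to 0.55 (log2), and differences of the summed level from -0.129 to 0.138, -9.80 to 3.15 and -9.80 to 3.15 percentage points. The median of old MIT-001 against old PBS was -0.10 with median centring and -0.0495 centred on the ribosomal protein genes. For old PBS and old MIT-001 against young PBS, the medians were -0.51 and -0.60 with median centring and -0.34 and -0.34 with FPKM. Quantile normalization put the medians of both comparisons with young PBS at 0.03. FPKM leaves the summed share unchanged by construction. Among the members named by their p in a comparison, directions turned for Rpl26 between old MIT-001 and old PBS with copies summed (0.17), for Rpl7l1 between old PBS and young PBS with median centring (-0.10), and between old MIT-001 and young PBS for Rps3a1 (-0.15) and Rpl30 (-0.15) with copies summed, for Rpl15 (-0.0506) and Rpl30 (-0.039) with median centring, and on leaving out young PBS replicate 2. Leaving out 1 library, the fold changes of old MIT-001 against young PBS ran from -0.22 to 1.50 for Rps3a1, -0.11 to 0.84 for Rpl15 and -0.17 to 0.92 for Rpl30. With copies summed, directions also turned for Rpl21 between old MIT-001 and old PBS (0.55), and between old PBS and young PBS for Rpl26 (-0.35), Rps3a1 (-0.20) and Rpl30 (-0.31). The causes of these changes of direction, including the division of reads among copies, were not tested. With 2 libraries per group and no counts, the spread between the young PBS libraries limits both comparisons with young PBS.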
